A study of Mus musculus with 9 samples.

Results

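The interferon-induced PARP enzymes Parp9, Parp10, Parp11, Parp12 and Parp14, together with Dtx3l, the ubiquitin ligase that partners Parp9, were followed through 9 subcutaneous mouse tumours. The 6 genes were taken by name from the 34745 genes of the expression table, and all 6 were among the 14506 genes with enough reads to be tested. The tumours were grown from LLC cells, the Lewis lung carcinoma line, labelled lung adenocarcinoma, which were injected under the skin of wild-type male C57BL/6 hosts; the age is given as 6 to 8, with no unit. Treatment began after mice with tumours of about 100 mm3 had been randomised, and each group held 3 tumours. The first group received bortezomib (BTZ, a proteasome inhibitor) at 0.5 mg/kg with an antibody against PD-L1, the second the antibody alone, and the third an isotype control antibody. Each antibody was given at 10 mg/kg and all agents were injected into the peritoneum. The groups are called BTZ+anti-PDL1, anti-PDL1 and isotype, the last from its treatment label although its samples are titled Blank; no group received BTZ alone, so BTZ was seen only on top of the antibody.

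PARP enzymes take ADP-ribose from NAD+ and attach it to proteins. Parp1, Parp2 and the tankyrases build chains of it and work in DNA repair and in other housekeeping roles, whereas the interferon-induced members mostly attach a single unit or, like Parp9, work through a partner. Interferons bind their receptors and activate a relay of transcription factors, Stat2 and Irf9 among them, which raise a broad set of antiviral genes; these PARP genes belong to that set in many mouse and human cell types.

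The count tables totalled 18516282 to 21509953 per tumour. Values below are CPM, counts relative to the library total, scaled by the trimmed mean of M-values (TMM), and fold changes come from edgeR's quasi-likelihood test over all 9 tumours, with p-values adjusted by the Benjamini-Hochberg method over the 14506 genes. Summed over 9 skeletal muscle markers, BTZ+anti-PDL1 replicate 1, anti-PDL1 replicate 1 and isotype replicate 3 stood apart at 716, 955 and 2578 CPM, against 5.26 to 191 CPM in the other 6 tumours. Isotype replicate 2 had the lowest sum of 12 T cell markers, 7.28 CPM against 25.2 to 46.7 CPM in the other 8 tumours, and of 10 macrophage and monocyte markers, 1950 CPM against 2630 to 3744 CPM. Of 9 lung epithelial markers, Nkx2-1, Sftpc and Sftpb had no count in any tumour, and Epcam and Krt7 were at 0 in some. Krt18 averaged 108 CPM, 82.7 CPM and 97.1 CPM in BTZ+anti-PDL1, anti-PDL1 and isotype tumours. The others were lower: in the same order Krt8 averaged 11.1, 13.1 and 21.2 CPM. Napsa averaged 8.31, 6.87 and 6.255 CPM, and Cdh1 6.27, 4.065 and 2.61 CPM. These were bulk tumours, in which more cells of a type and more RNA per cell cannot be told apart.

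All 6 genes had their highest mean in BTZ+anti-PDL1 tumours, an intermediate mean in anti-PDL1 tumours and their lowest mean in isotype tumours. None of these differences passed the adjusted threshold of 0.05. The sizes were modest, between 1.08-fold and 1.62-fold, and isotype replicate 2 was the lowest tumour for all 6 genes.

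**Figure D1:**
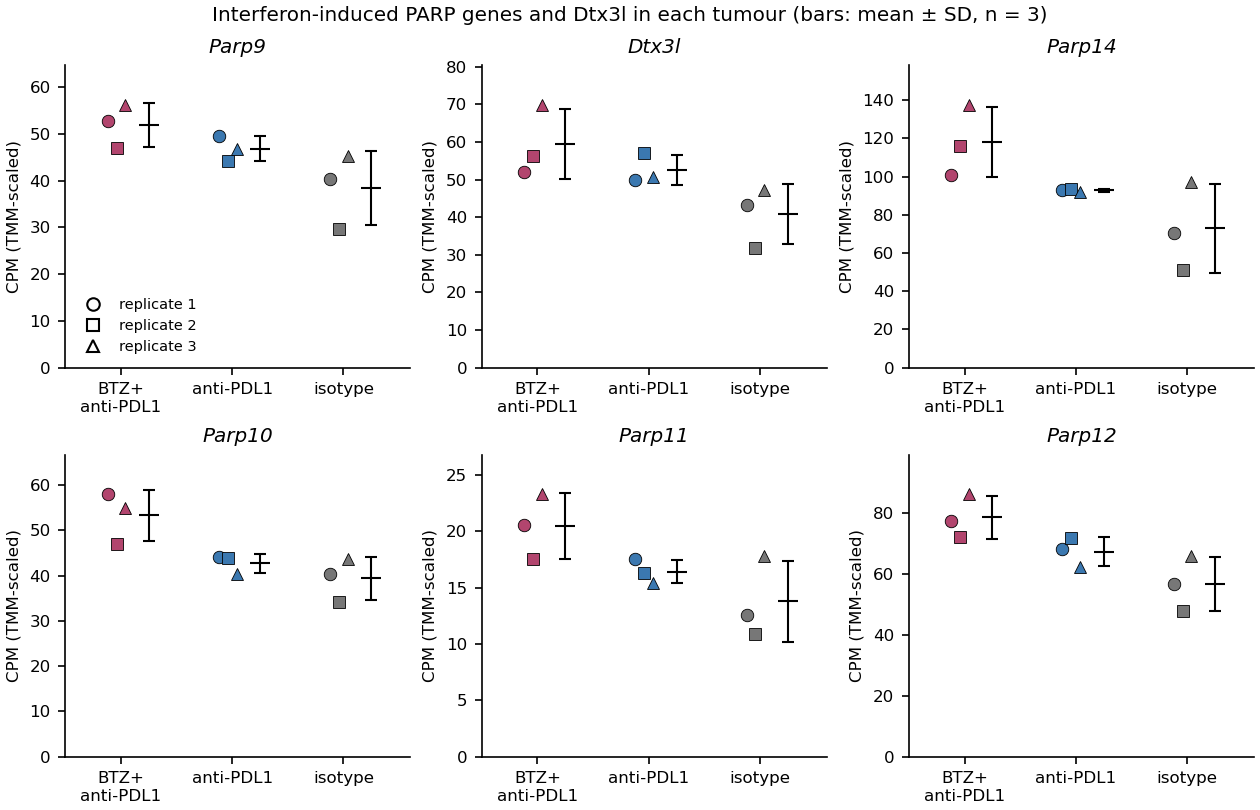
TMM-scaled CPM (vertical axes, from 0) of the 6 genes in each of the 9 tumours, by treatment group; marker shapes give the replicate and bars the mean ± SD of 3 tumours. For each gene the lowest point is isotype replicate 2, and BTZ+anti-PDL1 replicate 3 is the highest point except for Parp10.

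Parp9 and Dtx3l are neighbours on chromosome 16 (mm10) and overlap head to head. Parp9 occupies chr16:35938470-35972605 on the plus strand and Dtx3l occupies chr16:35926511-35939151 on the minus strand. They share 682 bases, of which 458 are exonic in both, 9.401% of the exon bases of Parp9 and 8.0% of those of Dtx3l. Whether the authors' counting used strand is not given in the sources used here, so reads from the shared stretch may be divided uncertainly between the genes. The Dtx3l start window (RefSeq, GRCm38.p6, chr16:35938978-35939277, minus strand, 250 bases before the start site to 50 after) is shown because part of it lies in this shared stretch; it held none of the motifs searched, so no letters are in capitals.
Dtx3l: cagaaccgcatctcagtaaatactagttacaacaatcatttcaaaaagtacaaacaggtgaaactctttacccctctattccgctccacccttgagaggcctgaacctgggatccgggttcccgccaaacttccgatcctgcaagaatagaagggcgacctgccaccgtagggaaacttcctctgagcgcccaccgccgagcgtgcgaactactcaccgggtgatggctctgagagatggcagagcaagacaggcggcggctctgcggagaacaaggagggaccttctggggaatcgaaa

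Parp9, which carries macrodomains that read ADP-ribose and works with Dtx3l on histones, had 52.7, 47.0 and 56.3 CPM in its 3 BTZ+anti-PDL1 tumours, against 49.6, 44.2 and 46.8 CPM with anti-PDL1 alone and 40.4, 29.6 and 45.2 CPM with the isotype antibody. BTZ+anti-PDL1 and anti-PDL1 overlapped, anti-PDL1 and isotype overlapped through isotype replicate 3, and every BTZ+anti-PDL1 tumour was above every isotype tumour. The log2 fold change was 0.15 ± 0.142 (SE; adjusted p = 0.911) for BTZ+anti-PDL1 against anti-PDL1, 0.44 ± 0.143 (adjusted p = 0.520) for BTZ+anti-PDL1 against isotype and 0.29 ± 0.143 (adjusted p = 0.763) for anti-PDL1 against isotype.

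Dtx3l, a Deltex-family ubiquitin ligase, had 52.0, 56.4 and 69.9 CPM in BTZ+anti-PDL1 tumours, 50.01, 57.1 and 50.6 CPM in anti-PDL1 tumours, and 43.2, 31.9 and 47.3 CPM in isotype tumours. It was the only one of the 6 genes for which every anti-PDL1 tumour lay above every isotype tumour; BTZ+anti-PDL1 and anti-PDL1 overlapped. Against anti-PDL1 the log2 fold change of Dtx3l was 0.18 ± 0.155 (adjusted p = 0.904) with BTZ added, and it was 0.54 ± 0.156 (adjusted p = 0.492) for BTZ+anti-PDL1 against isotype and 0.37 ± 0.156 (adjusted p = 0.763) for anti-PDL1 against isotype.

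The balance between the partners was read from their counts within each tumour. The ratio of Parp9 to Dtx3l counts was 1.01, 0.833 and 0.804 in BTZ+anti-PDL1 tumours, 0.991, 0.773 and 0.925 in anti-PDL1 tumours and 0.934, 0.927 and 0.955 in isotype tumours. All 3 groups overlapped in this ratio. The difference in mean log2 ratio was -0.02 for BTZ+anti-PDL1 against anti-PDL1 (p = 1.0), -0.09 for BTZ+anti-PDL1 against isotype (p = 0.4) and -0.07 for anti-PDL1 against isotype (p = 0.7), by exact two-sided permutation tests whose smallest possible p is 0.1. The first of these took the opposite sign, at up to 0.06, without BTZ+anti-PDL1 replicate 2 or 3 or anti-PDL1 replicate 1 or 3, and the last was 0.03 without anti-PDL1 replicate 2.

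Parp14, a large macrodomain PARP known in mouse as a cofactor of Stat6 in the response to IL-4, lies at chr16:35832874-35871544 on the minus strand, 54966 bases from Dtx3l. Its 3 BTZ+anti-PDL1 tumours had 101, 116 and 138 CPM, its anti-PDL1 tumours 93.0, 93.7 and 91.8 CPM, and its isotype tumours 70.4, 51.1 and 97.4 CPM. The anti-PDL1 tumours lay within 2 CPM of one another, every BTZ+anti-PDL1 tumour exceeded them, and isotype replicate 3 stood above all 3 anti-PDL1 tumours while the other isotype tumours stood below. Parp14 varied most among the 6 genes, with a ratio of 2.70 between its highest and lowest tumour. The log2 fold change was 0.35 ± 0.210 (adjusted p = 0.886) for BTZ+anti-PDL1 against anti-PDL1, 0.70 ± 0.211 (adjusted p = 0.520) for BTZ+anti-PDL1 against isotype and 0.35 ± 0.211 (adjusted p = 0.803) for anti-PDL1 against isotype.

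Parp10, a mono-ADP-ribosyltransferase that also binds ubiquitin, lies at chr15:76231174-76243441 on the minus strand and overlaps Plec, on the same strand, by 1401 bases, so its count may hold some reads of Plec. Parp14 overlaps Gm49730 by 1773 bases and Parp11 overlaps Gm43633 by 2330 bases, each on the same strand. Parp9 overlaps Gm15564, on the opposite strand, by 5854 bases. Their counts may likewise hold some reads of these genes. Parp10 had 58.0, 47.0 and 54.8 CPM in BTZ+anti-PDL1 tumours, 44.1, 43.8 and 40.3 CPM in anti-PDL1 tumours, and 40.4, 34.2 and 43.6 CPM in isotype tumours. Each BTZ+anti-PDL1 tumour was above each tumour of the other groups, and anti-PDL1 and isotype overlapped. The log2 fold change was 0.32 ± 0.110 (95% interval 0.07 to 0.57; adjusted p = 0.819) for BTZ+anti-PDL1 against anti-PDL1, 0.43 ± 0.110 (adjusted p = 0.394) for BTZ+anti-PDL1 against isotype and 0.12 ± 0.110 (95% interval -0.13 to 0.36; adjusted p = 0.857) for anti-PDL1 against isotype. Parp10 was the gene with the smallest spread over the 9 tumours, 1.70-fold.

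Parp11, a mono-ADP-ribosyltransferase of the nuclear envelope, lies at chr6:127446840-127494261 on the plus strand. Its first RefSeq start window (GRCm38.p6, chr6:127446590-127446889, plus strand) is shown because, of the 4 windows found for the 6 genes, only this one held a searched motif. The capitals mark a match on the reverse strand to the core of the interferon-stimulated response element (ISRE), GAAA and again GAAA with any 2 bases between them, at -44 to -35 from the start, and a match to TTCNNNGAA, the gamma-activated site (GAS) pattern, at -37 to -29, which overlap.
Parp11: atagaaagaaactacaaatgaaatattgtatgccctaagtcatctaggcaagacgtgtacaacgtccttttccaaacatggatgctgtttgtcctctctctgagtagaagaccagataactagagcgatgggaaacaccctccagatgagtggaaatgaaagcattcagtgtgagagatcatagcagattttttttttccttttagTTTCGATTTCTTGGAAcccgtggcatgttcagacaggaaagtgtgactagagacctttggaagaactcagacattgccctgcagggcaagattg

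Both strands were searched. Of 32851 RefSeq windows of this length, 3.44% held the ISRE core, 2.75% held the variant with 3 bases between the GAAA pair, 8.30% held the GAS pattern and 0.454% held both the ISRE core and the GAS pattern. The second Parp11 window and the windows of Parp12 and Dtx3l held none of these letters, which says nothing of the factors that act there. Of the 6 genes, 3 had an entry and Parp9, Parp10 and Parp14 had none. In the type I interferon-stimulated list below, 12 of 24 genes with a window held the ISRE core, as did 11 of 20 in the interferon-gamma list and 1 of 10 in the rest of the PARP family.

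Parp11 had 20.6, 17.5 and 23.3 CPM in BTZ+anti-PDL1 tumours, 17.5, 16.3 and 15.5 CPM in anti-PDL1 tumours, and 12.6, 10.9 and 17.8 CPM in isotype tumours. The lowest BTZ+anti-PDL1 tumour and the highest anti-PDL1 tumour were nearly level, and isotype replicate 3 stood above every anti-PDL1 tumour and above BTZ+anti-PDL1 replicate 2. For Parp11 the log2 fold change was 0.32 ± 0.181 (adjusted p = 0.886) for BTZ+anti-PDL1 against anti-PDL1, 0.57 ± 0.182 (adjusted p = 0.520) for BTZ+anti-PDL1 against isotype and 0.25 ± 0.182 (adjusted p = 0.825) for anti-PDL1 against isotype.

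Parp12, a zinc-finger PARP with antiviral activity in cell culture, lies at chr6:39086410-39118349 on the minus strand. It had 77.4, 72.3 and 86.4 CPM in BTZ+anti-PDL1 tumours, 68.3, 71.8 and 62.3 CPM in anti-PDL1 tumours, and 56.8, 47.8 and 65.9 CPM in isotype tumours. BTZ+anti-PDL1 lay above both other groups, by less than 1 CPM between BTZ+anti-PDL1 replicate 2 and anti-PDL1 replicate 2, and anti-PDL1 overlapped isotype. The difference for Parp12 on the log2 scale was 0.22 ± 0.119 (adjusted p = 0.878) for BTZ+anti-PDL1 against anti-PDL1, 0.47 ± 0.119 (adjusted p = 0.394) for BTZ+anti-PDL1 against isotype and 0.25 ± 0.119 (adjusted p = 0.763) for anti-PDL1 against isotype.

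Per length, in FPKM, which divides by gene length and library total, Parp12 was the most abundant and Parp11 the least in every group. Parp12 averaged 18.7 ± 1.63, 15.9 ± 1.21 and 13.3 ± 2.48 FPKM (SD, n = 3) in BTZ+anti-PDL1, anti-PDL1 and isotype tumours, and Parp11 averaged 1.61 ± 0.221, 1.27 ± 0.0845 and 1.07 ± 0.309 FPKM. Between them, in BTZ+anti-PDL1 tumours, came Parp14 at 10.45 ± 1.59, Parp9 at 8.49 ± 0.738, Dtx3l at 8.26 ± 1.27 and Parp10 at 7.39 ± 0.785 FPKM. In BTZ+anti-PDL1 tumours, neighbours among these 4 differed by less than the sum of their SDs. Their order was the same in anti-PDL1 and isotype tumours. In anti-PDL1 tumours Dtx3l, at 7.24 ± 0.565 FPKM, and Parp10, at 5.87 ± 0.317 FPKM, differed by more than the sum of their SDs. The gene lengths implied by the authors' FPKM exceed the merged exons of the annotation unequally, by most for Parp11 (12850 against 7026 bases) and Parp10 (7264 against 4275 bases). CPM per kilobase of merged exons left Parp12 highest (19.7 in BTZ+anti-PDL1 tumours) and Parp11 lowest (2.91), and put Parp10 (12.5) next to Parp14 (12.7), above Parp9 (10.7) and Dtx3l (10.4). By that measure the order changed between groups: in isotype tumours Parp10 (9.22) was above Parp9 (7.88), Parp14 (7.84) and Dtx3l (7.13).

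**Figure D2:**
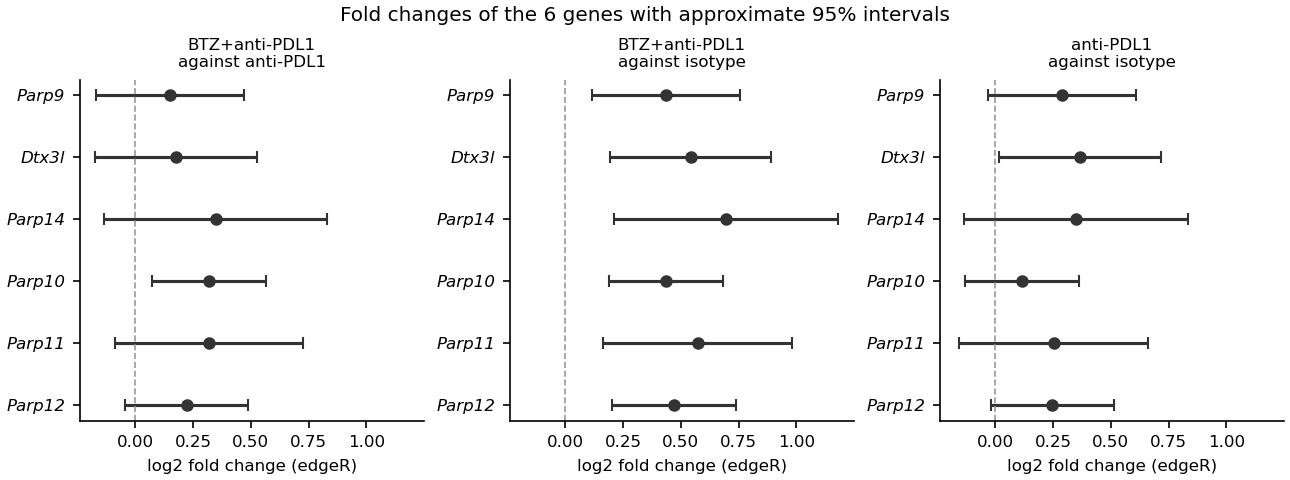
Log2 fold changes from edgeR (points) with approximate 95% intervals (bars) for the 6 genes in the 3 comparisons; the dashed line marks no difference. All 18 points lie above 0, and the intervals clear 0 for all 6 genes for BTZ+anti-PDL1 against isotype, for Parp10 for BTZ+anti-PDL1 against anti-PDL1 and for Dtx3l for anti-PDL1 against isotype.

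What BTZ added to the antibody is read from BTZ+anti-PDL1 against anti-PDL1. All 6 genes had a higher mean with BTZ, with a median log2 fold change of 0.27 against 0.0029 over all genes tested, where 50.8% of genes had a log2 fold change above 0. None of the 6 passed the adjusted threshold in edgeR or DESeq2, and 0.0138% of all genes did in edgeR. At an unadjusted p under 0.05, 1 of the 6, Parp10, was higher, beside 3.15% of all genes. Groups were separate, with BTZ+anti-PDL1 higher, for 4 of the 6 (Parp14, Parp10, Parp11 and Parp12), beside 7.33% of all genes. The margin was narrow for Parp11, whose nearest tumours had 17.52 and 17.5 CPM, and for Parp12, with 72.28 and 71.8 CPM. The unadjusted count was 0 without BTZ+anti-PDL1 replicate 1 or anti-PDL1 replicate 3, and 3 without isotype replicate 2 or 3, which belong to neither group; the share of all genes in these fits was 2.3% to 3.41%.

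The summed NK and cytotoxic markers did not overlap in this comparison either, at 38.0 to 46.3 CPM in BTZ+anti-PDL1 tumours and 28.5 to 34.4 CPM in anti-PDL1 tumours, with 8 of 8 markers higher. Of these, Gzmb averaged 19.2 CPM in BTZ+anti-PDL1 tumours and 11.3 CPM in anti-PDL1 tumours, and it alone passed in DESeq2. Groups were separate for Gzmb, Gzma and Prf1, and overlapped for Ncr1, Klrb1c, Klrk1, Nkg7 and Eomes. The 6 neutrophil markers summed to 32.4 to 63.1 CPM and 70.6 to 96.6 CPM in the same order, with 5 of 5 tested markers lower and Ly6g at 0 in some tumours, and the 12 T cell markers to 30.4 to 46.7 CPM and 29.8 to 38.2 CPM, with 10 of 12 higher and Cd3g and Cd8b1 at 0 in some tumours. Endothelial markers summed to 123 to 152 CPM in BTZ+anti-PDL1 tumours and 154 to 201 CPM in anti-PDL1 tumours, with 5 of 5 lower. Fibroblast markers summed to 7854 to 8066 CPM in BTZ+anti-PDL1 tumours and 8900 to 11790 CPM in anti-PDL1 tumours, with 3 of 6 lower. Those 3 were the collagens Col1a1, Col1a2 and Col3a1, and Col3a1 alone averaged 5934 CPM and 7125 CPM in the 2 groups. Dcn, Lum and Pdgfra had log2 fold changes of 0.0015, 0.14 and 0.01, with overlapping groups. Of these 5 lists, the T cell list alone overlapped between the groups, and the part of all 5 in the levels of the genes described was not tested.

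The full treatment against the control is BTZ+anti-PDL1 against isotype. Here all 6 genes had their largest differences, from 1.35-fold for Parp10 and Parp9 to 1.62-fold for Parp14, with a median log2 fold change of 0.51 against -0.0011 over all genes, 49.7% of which were above 0. None of the 6 passed the adjusted threshold in edgeR or DESeq2, and 0.00689% of all genes did in edgeR. All 6 were higher at an unadjusted p under 0.05, beside 4.42% of all genes, and this count was 6 with any single tumour left out. All genes at that p in either direction numbered 1247 of 14506 in the full fit. They numbered 778 of 14733 without isotype replicate 2 and 1764 of 14691 without isotype replicate 3. The log2 fold changes of Parp9 and Parp14 were 0.29 and 0.50 without isotype replicate 2, and 0.57 and 0.96 without isotype replicate 3. Groups were separate for 5 of the 6, Parp11 being the exception, beside 6.96% of all genes. NK and cytotoxic markers summed to 38.0 to 46.3 CPM in BTZ+anti-PDL1 tumours and 25.3 to 30.0 CPM in isotype tumours, with 8 of 8 higher. Of these, Gzmb averaged 19.2 CPM in BTZ+anti-PDL1 tumours and 11.95 CPM in isotype tumours, and groups were separate for Klrb1c, Gzma and Gzmb only. T cell markers summed to 30.4 to 46.7 CPM in BTZ+anti-PDL1 tumours and 7.28 to 35.4 CPM in isotype tumours, with 12 of 12 higher. Endothelial markers summed to 122.7 to 152.4 CPM in BTZ+anti-PDL1 tumours and 151.8 to 238.5 CPM in isotype tumours. Pecam1, Cdh5, Kdr, Tek and Emcn were each lower, with separate groups for Pecam1 and Cdh5 only. Neutrophil markers summed to 32.4 to 63.1 CPM and 44.7 to 103.5 CPM in the same order. Among them S100a9 passed as lower in DESeq2, while Csf3r had a log2 fold change of 0.06. The part of these lists was not tested.

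The antibody alone is read from anti-PDL1 against isotype. All 6 genes had a higher mean with the antibody, with a median log2 fold change of 0.27 against -0.0034 over all genes, 49% of which were above 0. None of the 6 passed the adjusted threshold in edgeR or DESeq2, and 0.0138% of all genes did in edgeR. At an unadjusted p under 0.05, 1 of the 6, Dtx3l, was higher, beside 3.01% of all genes, and groups were separate for Dtx3l alone, beside 6.08%. Both counts were 5 without isotype replicate 3, the muscle-rich control, where the shares of all genes were larger too, 6.24% for the unadjusted count and 15.4% for separate groups. In the full fit Dtx3l had an unadjusted p of 0.0423 in edgeR. The unadjusted count was 0 without BTZ+anti-PDL1 replicate 2, which belongs to neither group. It was also 0 with any single anti-PDL1 tumour left out, or isotype replicate 1 or 2. Dropping replicate 2 or 3 of the anti-PDL1 group also lowered the share of all genes, from 3.01% to 2.33% and 2.54% in turn. For the other fits with a count of 0, the share of all genes that were higher was not taken. The separate groups numbered 2 when anti-PDL1 replicate 2 was left out and 3 when anti-PDL1 replicate 3 was, beside 10.7% and 10.5% of all genes.

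The size of the fold changes in this comparison depended on those control tumours. Without isotype replicate 2, the tumour with the lowest T cell and macrophage markers, they were 0.15 for Parp14, 0.22 for Dtx3l and 0.03 for Parp10. Without isotype replicate 3 they were 0.61, 0.48 and 0.20 for the same genes. T cell markers summed to 29.8 to 38.2 CPM in anti-PDL1 tumours and 7.28 to 35.4 CPM in isotype tumours, with 12 of 12 higher. Red blood cell markers summed to 45.3 to 88.8 CPM in anti-PDL1 tumours and 136 to 268 CPM in isotype tumours, with 6 of 6 lower and Slc4a1 at 0 in some tumours; the part of both lists was not tested.

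Whether BTZ moved the genes more than the antibody did was tested as the difference between the 2 steps, BTZ+anti-PDL1 against anti-PDL1 minus anti-PDL1 against isotype. The steps were close for Parp14, at 0.35 each, and for Parp12, at 0.22 and 0.25. For Parp10 the BTZ step was larger by 0.20 (95% interval -0.23 to 0.63; adjusted p = 0.940), and for Dtx3l it was smaller, a difference of -0.19 (95% interval -0.79 to 0.41; adjusted p = 0.958). None of the 6 passed, adjusted or at an unadjusted p under 0.05, in edgeR, nor adjusted in DESeq2; 0.0138% of all genes passed adjusted and 5.43% unadjusted in edgeR. The intervals are wide enough to hold a difference in either direction for each gene.

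**Figure D3:**
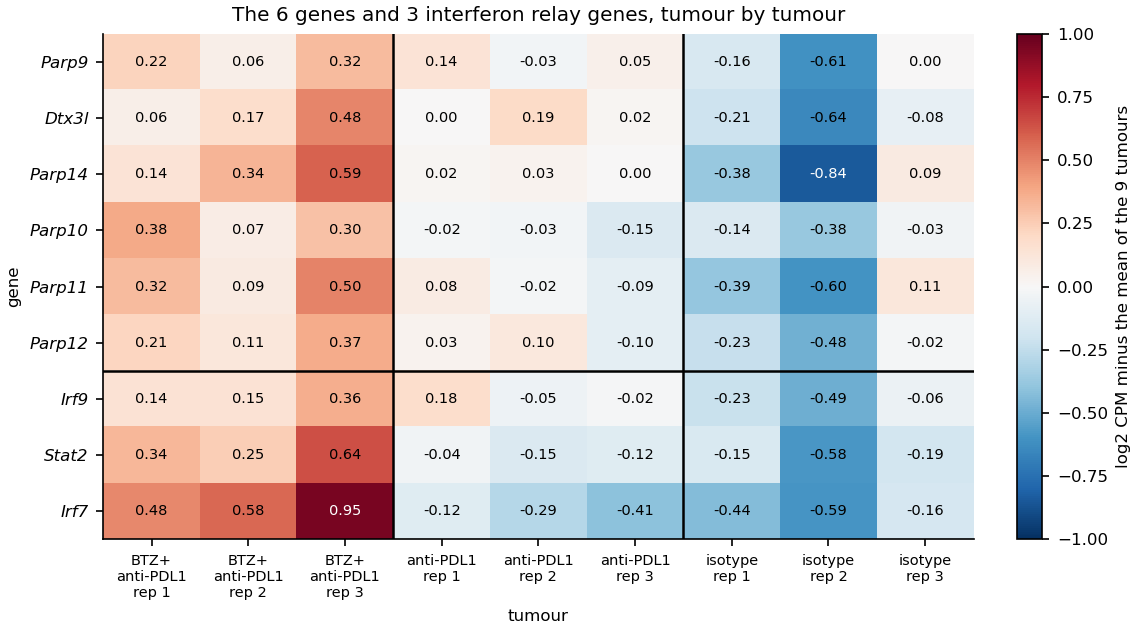
Log2 CPM of the 6 genes and of Irf9, Stat2 and Irf7 in each tumour, as the difference from that gene's mean over the 9 tumours (colour and printed value). BTZ+anti-PDL1 replicate 3 holds the highest value of 8 of the 9 genes, and isotype replicate 2 the lowest of all 9.

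Tumour by tumour, the mean of the 6 genes relative to their own averages was 0.22, 0.14 and 0.43 (log2) in BTZ+anti-PDL1 tumours, 0.04, 0.04 and -0.04 in anti-PDL1 tumours, and -0.25, -0.59 and 0.01 in isotype tumours. The anti-PDL1 tumours were nearly level, and isotype tumours were the most spread. The closest pair by the root mean square difference of these profiles was Parp10 and Parp12 at 0.0913, followed by Parp9 and Parp12 at 0.0948 and Dtx3l and Parp12 at 0.102. Parp14 and Parp10 were farthest apart, at 0.241. Parp9 was nearer to Parp12 than to its neighbour Dtx3l (0.129). The root mean square difference also depends on how far each profile varies, least for Parp10 (root mean square 0.218) and most for Parp14 (0.386). Ranked by Pearson correlation, the closest pairs were Parp11 and Parp12 (0.966) and Dtx3l and Parp14 (0.956). Parp10 and Parp12 stood at 0.923, and the least alike were Parp10 and Dtx3l (0.782).

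Outside the 6 genes, the 3 nearest profiles were taken for each from 12213 genes. Predicted loci, such as those named by Gm numbers or Rik names, had been left out of these. For Parp9 they were Samhd1 (0.0612), a nucleotide-degrading restriction factor, H2-T22 (0.07) and Irf9 (0.0708). For Dtx3l they were Irf1 (0.0997), a transcription factor of the interferon-gamma response, Aim1 (0.108, listed as Crybg1 in the gene name table) and Rassf5 (0.115). For Parp14 they were Trim12c (0.119), Sp100 (0.124) and Sp110 (0.131), the Sp genes being nuclear body proteins. Tapbp, which loads peptides onto MHC class I, came first for both Parp10 (0.0805) and Parp12 (0.0605). Sp100 came first for Parp11 (0.0573), followed by the immunoproteasome subunit Psmb10 (0.0892) and H2-D1 (0.0916).

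Ifi27 (0.081) and Sept1 (0.0914) followed for Parp10, and Trim30d (0.079) and Ifi204 (0.0794) for Parp12. H2-T22, H2-D1, Trim12c, Trim30d and Ifi204 have close copies among which reads may be divided, so their values are uncertain. Ranking by Pearson correlation instead kept 1 of the 3 names for Parp11 and for Parp12 and 0 for the other 4 genes.

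The receptor relay differed in size from gene to gene. Irf7, the transcription factor that amplifies type I interferon, had 29.0, 31.0 and 40.3 CPM in BTZ+anti-PDL1 tumours, 19.1, 17.0 and 15.6 CPM in anti-PDL1 tumours and 15.3, 13.8 and 18.5 CPM in isotype tumours. BTZ+anti-PDL1 stood clear of both other groups, which overlapped. Its log2 fold change was 0.96 ± 0.157 (adjusted p = 0.293) for BTZ+anti-PDL1 against anti-PDL1, 1.07 ± 0.158 (adjusted p = 0.106) for BTZ+anti-PDL1 against isotype and 0.12 ± 0.158 (adjusted p = 0.895) for anti-PDL1 against isotype. Stat2 had log2 fold changes of 0.52, 0.71 and 0.19 in the same 3 comparisons, and Irf9 of 0.18, 0.47 and 0.29. Usp18, an inhibitor of the receptor, was higher by 0.89 ± 0.169 (adjusted p = 0.306) in BTZ+anti-PDL1 against anti-PDL1.

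None of the 15 relay genes passed in edgeR in any comparison; in DESeq2, Irf7 and Usp18 passed for BTZ+anti-PDL1 against anti-PDL1, and these and Stat2 for BTZ+anti-PDL1 against isotype. Their median log2 fold change was 0.18 for BTZ+anti-PDL1 against anti-PDL1, 0.27 for BTZ+anti-PDL1 against isotype and 0.12 for anti-PDL1 against isotype, and 4, 6 and 1 of the 15 were higher at an unadjusted p under 0.05.

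Among 30 type I interferon-stimulated genes, none passed the adjusted threshold in edgeR, and the median log2 fold changes, in that order, were 0.67, 0.76 and 0.18. In DESeq2, 10 of the 30 passed as higher for BTZ+anti-PDL1 against anti-PDL1, 17 for BTZ+anti-PDL1 against isotype and 0 for anti-PDL1 against isotype. For BTZ+anti-PDL1 against anti-PDL1, 30 of 30 were higher, 22 of them at an unadjusted p under 0.05 and 24 with separate groups. Ifit3, an antiviral RNA-binding protein, averaged 33.7 ± 2.75 CPM in BTZ+anti-PDL1 tumours and 16.4 ± 1.37 CPM in anti-PDL1 tumours (SD, n = 3), a log2 fold change of 1.04 ± 0.149 (adjusted p = 0.177 in edgeR). Cmpk2, a nucleotide kinase, had a log2 fold change of 0.86, and Ifit3b, whose near-identical copy is Ifit3, of 1.14. Each of the 6 genes had a smaller log2 fold change than the median of this list in that comparison. In anti-PDL1 against isotype, Parp9 (0.29), Dtx3l (0.37), Parp14 (0.35), Parp11 (0.25) and Parp12 (0.25) were above the list median of 0.18. Parp10, at 0.12, was below it.

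Among 26 interferon-gamma response genes, none passed in edgeR, and the medians were 0.30, 0.93 and 0.59; 1, 12 and 1 were higher at an unadjusted p under 0.05, and in DESeq2 Cxcl10 alone passed, for BTZ+anti-PDL1 against isotype. Cxcl10, a chemokine that draws T cells, averaged 77.9 ± 18.8 CPM in BTZ+anti-PDL1 tumours and 46.2 ± 4.79 CPM in anti-PDL1 tumours (SD, n = 3), and Tapbp and Psmb10 had log2 fold changes of 0.22 and 0.32 there. Ifng, the gene of interferon-gamma, averaged 0.863 CPM in BTZ+anti-PDL1 tumours and 0.411 CPM in anti-PDL1 tumours, too few reads for a firm value, and no other of 9 interferon genes had enough counts to be tested.

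**Figure D4:**
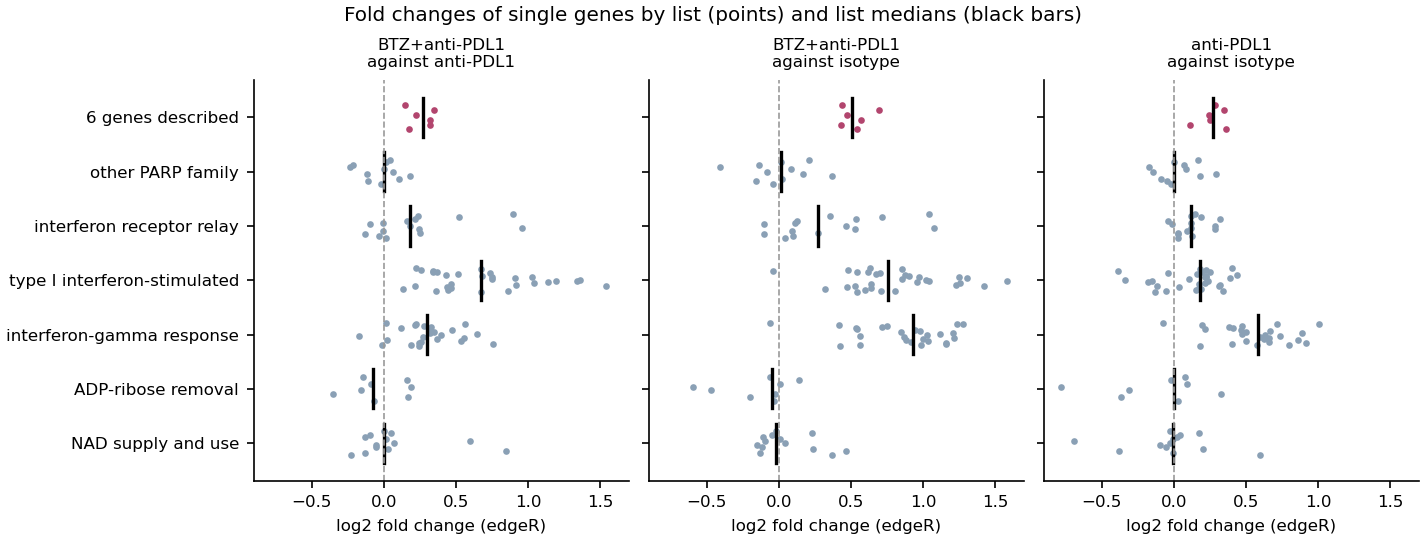
Log2 fold changes of single genes (points) and list medians (black bars) for the 6 genes and 6 other lists in the 3 comparisons; the dashed line marks no difference. In BTZ+anti-PDL1 against anti-PDL1 the median of the 6 genes, 0.27, lies below that of the type I list, 0.67, and near that of the interferon-gamma list, 0.30, while the rest of the PARP family centres on 0. In both comparisons against isotype the median of the 6 genes lies below that of the interferon-gamma list. For anti-PDL1 against isotype it lies above that of the type I list.

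The rest of the PARP family centred on no difference. The median log2 fold change of 11 genes was 0.00064 for BTZ+anti-PDL1 against anti-PDL1, 0.02 for BTZ+anti-PDL1 against isotype and 0.0042 for anti-PDL1 against isotype, and 6 of 11 were higher in each comparison. None passed in edgeR or DESeq2, and 0, 2 and 2 were higher at an unadjusted p under 0.05. For BTZ+anti-PDL1 against anti-PDL1, Tnks, a tankyrase, had a log2 fold change of -0.21, Parp2 of 0.11 and Parp3 of 0.18, with overlapping groups for each. Zc3hav1, the antiviral zinc-finger PARP without catalytic activity, averaged 196 ± 2.52 CPM in BTZ+anti-PDL1 tumours, 190 ± 7.95 CPM in anti-PDL1 tumours and 170 ± 6.39 CPM in isotype tumours (SD, n = 3). Its log2 fold changes were 0.21 ± 0.0596 for BTZ+anti-PDL1 against isotype (adjusted p = 0.492 in edgeR) and 0.17 ± 0.0596 for anti-PDL1 against isotype (adjusted p = 0.763 in edgeR), and it was named here after its values were seen.

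Of the Deltex ligases related to Dtx3l, Dtx3 had 148, 144 and 141 CPM in BTZ+anti-PDL1 tumours, 101, 126 and 107 CPM in anti-PDL1 tumours, and 124, 112 and 122 CPM in isotype tumours. Its BTZ+anti-PDL1 tumours were above all others, and anti-PDL1 overlapped isotype. The log2 fold change was 0.37 ± 0.0857 (adjusted p = 0.494 in edgeR) for BTZ+anti-PDL1 against anti-PDL1, where it passed in DESeq2, while Dtx4 had 0.12 and Dtx2 had -0.06. Of 8 tested enzymes and readers that remove ADP-ribose, 3 were higher and 5 lower in that comparison, none passed in edgeR or DESeq2 or had an unadjusted p under 0.05, and the median was -0.08. Among these, Oard1, which cleaves terminal ADP-ribose, had a log2 fold change of 0.16, Parg, which degrades the chains, of -0.14 and Adprhl2, which removes ADP-ribose from serine, of 0.17.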

How the data were processed

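RNA from 9 separate tumours was sequenced as bulk RNA. The counts per gene were deposited by the authors as whole numbers beside FPKM values that the authors scaled by gene length and library total. The submitters' processing notes name HISAT2 2.0.4, StringTie 1.3.3b and build mm10 without roles; the counter, its annotation and its strand setting are not given in the sources used here. The genes and lists were chosen with earlier results of these data known.

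Groups follow the treatment label. Of 34745 genes, 13060 had no count, and 14506 passed edgeR's filterByExpr with a minimum count of 10. edgeR 4.0.16 (R 4.3.3) fitted 3 group means to all 9 tumours, with TMM scaling and a robust quasi-likelihood test, leaving 6 residual degrees of freedom, and calls used an adjusted p under 0.05. Standard errors are the log2 fold change divided by the root of F, and 95% intervals use edgeR's total degrees of freedom. The script was tested on simulated data. Alternatives were RLE scaling, no filter, a fit to the 6 tumours of each comparison, a block for the replicate number, each tumour left out, the 3 muscle-rich tumours left out, DESeq2 1.42.0, and limma 3.58.1 on log2 FPKM. The last used a pseudocount of 1 or 0.1 and genes at an FPKM of at least 1 in 3 tumours, or no such filter.

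Profiles were built on log2 CPM (prior count 2) over genes of at least 1 CPM. Named genes were the 6 genes, up to 3 genes of each list with the smallest p in BTZ+anti-PDL1 against anti-PDL1, Stat2, Irf9, Irf7, the 3 nearest profiles of each gene and 5 defining markers; a further gene of the rule is not reported here. The lung epithelial marker list was added after the other results were known. The p-values of edgeR weigh a difference between groups against the spread between tumours.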

Additional observations from a re-analysis of the deposited data

How the results depend on the processing

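In the 3 comparisons between groups, the log2 fold changes of the 6 genes kept their direction under every alternative run (108 values a comparison, 0 reversed), and no gene passed. They ranged from 0.04 to 0.45 for BTZ+anti-PDL1 against anti-PDL1 (lowest adjusted p = 0.438), from 0.29 to 1.06 for BTZ+anti-PDL1 against isotype (lowest adjusted p = 0.0587) and from 0.03 to 0.61 for anti-PDL1 against isotype (lowest adjusted p = 0.274). With only the 6 tumours compared, 4 of the 6 genes were higher at an unadjusted p under 0.05 for BTZ+anti-PDL1 against anti-PDL1, beside 3.78% of all genes. Without the 3 muscle-rich tumours 4 were for anti-PDL1 against isotype, beside 4.68%, and groups were separate for 5, beside 20.1%. The difference between the BTZ and antibody steps was above 0 for Parp10 and below 0 for Dtx3l under every alternative run. For the other 4 genes its sign changed with a tumour left out: it ran from -0.27 to 0.0132 for Parp9, from -0.27 to 0.19 for Parp14, from -0.17 to 0.20 for Parp11 and from -0.14 to 0.0796 for Parp12, and it was -0.0725 for Parp11 without the 3 muscle-rich tumours. The log2 ratio of Parp9 to Dtx3l ran, with a tumour left out, from -0.12 to 0.0567 for BTZ+anti-PDL1 against anti-PDL1 and from -0.15 to 0.0286 for anti-PDL1 against isotype. The cause was not tested.

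Over all genes tested, DESeq2 called 61, 109 and 15 genes in the 3 comparisons and 23 for the step, against 2, 1, 2 and 2 in edgeR; without a filter edgeR called 4, 6 and 2, with only the 6 tumours compared 12, 0 and 3, without the muscle-rich tumours 0, 0 and 0, and with a tumour left out 1 to 7, 0 to 20 and 1 to 4. Same-numbered tumours of different groups correlated at -0.434 to 0.393, over 0.1 in 3 of 9 pairs, so the numbers were not taken to pair the tumours; with the replicate number as a block, 0 of the 6 genes passed in each comparison and 1, 0 and 1 of all genes did. The median SE of a log2 fold change for BTZ+anti-PDL1 against anti-PDL1 was 0.138 over all genes, and the SEs of the 6 genes over the 3 comparisons ran from 0.110 to 0.211.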

Other observations

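The supply of NAD+, from which the PARP enzymes take ADP-ribose, showed no common direction. Of 13 tested genes that make or use NAD+, 7 were higher and 6 lower for BTZ+anti-PDL1 against anti-PDL1, with a median log2 fold change of 0.0029. None passed in edgeR or DESeq2, and none had an unadjusted p under 0.05. Cd38, an ectoenzyme that consumes NAD+, averaged 38.5 ± 1.12 CPM in BTZ+anti-PDL1 tumours and 42.2 ± 3.77 CPM in anti-PDL1 tumours (SD, n = 3). Haao, of the synthesis from tryptophan, and Nmnat2, which completes NAD+, averaged under 1 CPM in both groups, although Haao had 1.44 and 1.09 CPM in BTZ+anti-PDL1 replicates 2 and 3.

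The STAT6 and IL-4 response, in which mouse Parp14 is known to act, had a median log2 fold change of 0.02 over 11 tested genes for BTZ+anti-PDL1 against anti-PDL1, with 6 higher and 5 lower, and none passed in edgeR or DESeq2. Il13ra1, a receptor chain for IL-13, had 16.9, 15.1 and 18.1 CPM in BTZ+anti-PDL1 tumours and 21.2, 22.4 and 21.3 CPM in anti-PDL1 tumours, so the groups were separate, and its log2 fold change was -0.37 ± 0.141 (adjusted p = 0.849 in edgeR). Stat6 itself averaged 227 ± 7.54 CPM in BTZ+anti-PDL1 tumours and 211 ± 5.86 CPM in anti-PDL1 tumours (SD, n = 3). Tgm2, a transglutaminase of IL-4-treated macrophages, stood 0.38 ± 0.217 higher on the log2 scale (adjusted p = 0.886 in edgeR).

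Among the defining markers, Csf1r, the receptor of macrophages, had 202, 200 and 181 CPM in BTZ+anti-PDL1 tumours, 234, 223 and 206 CPM in anti-PDL1 tumours, and 175, 101 and 199 CPM in isotype tumours. The T cell receptor chain Cd3e had 2.45, 1.01 and 2.76 CPM in BTZ+anti-PDL1 tumours, 2.25, 2.18 and 1.78 CPM in anti-PDL1 tumours, and 1.21, 0.297 and 2.40 CPM in isotype tumours. Isotype replicate 2 was the lowest tumour for both, as it was for the 6 genes described above. Klrb1c, an NK cell receptor, had 1.51 to 1.87 CPM in BTZ+anti-PDL1 tumours, 1.26 to 1.55 CPM in anti-PDL1 tumours and 0.787 to 1.04 CPM in isotype tumours, and Siglech, of plasmacytoid dendritic cells, 0.641 to 1.35 CPM, 1.10 to 1.41 CPM and 0.198 to 0.784 CPM.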
